A study of Homo sapiens with 4 samples.

Results

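The genes described here are 43 human genes that drive or carry out mitosis, or whose transcripts peak in G2 and mitosis. They were chosen by name. Every probe that the authors' annotated table assigns to a listed symbol was taken, which gave 53 probes for 43 of the 34755 gene symbols on the array. RNA came from SUM149, an established cell line of inflammatory breast cancer with a basal-like profile. Cells were left untreated or kept for 3, 6 or 12 h in 2.5 uM Ricolinostat (ACY1215), an inhibitor of the mainly cytosolic deacetylase HDAC6, whose best known substrate is α-tubulin. Each condition was measured on 1 two-colour Agilent array. The sample was labelled with Cy5 and a common reference with Cy3, described by the submitters as SUM149 RNA pooled over all conditions.

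A cell enters mitosis when CDK1, bound to a B-type cyclin, is switched on by CDC25 phosphatases. Polo-like and Aurora kinases then drive spindle assembly, and the spindle assembly checkpoint restrains the ubiquitin ligase APC/C until every kinetochore is attached to microtubules. APC/C then marks securin and cyclin B for destruction, separase cuts the link between sister chromatids, and the cell divides. The transcripts of most of these genes are made mainly in G2 and mitosis, through promoters with a CHR element, which binds MuvB complexes, and CCAAT boxes, which bind NF-Y. FOXM1 and B-MYB act with MuvB to switch these genes on, and the DREAM complex uses the same element to keep them off in cells that do not cycle.

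There was 1 array per time point and no replicate, so time points were not tested against each other and no p-value is given. No array of vehicle-treated cells was analysed here. The 3 comparisons share the untreated array, so its errors enter all of them. All 43 genes, and all 53 probes, were well above background in both channels on all 4 arrays. The raw Cy5 signal of the probes that represent the genes ran from 310 (CDC25C) to 19255 (PTTG1) in untreated cells, over a local background of 24. No spot was saturated. A value below is the normalized log2 ratio of Cy5 over Cy3, and a change is that ratio at a time point minus the ratio on the untreated array. The only error that could be measured was technical. For each probe with repeated spots, the SD of a log2 change between them was taken. Its median over probes was 0.11 at 3 h, 0.11 at 6 h and 0.10 at 12 h. Its 95th percentile was 0.33, 0.18 and 0.19, so some probes were much noisier. A change over 2 median SD is called beyond spot error below. All but 5 of the 43 genes were read by a probe with 1 spot, whose own error is not known. The epithelial markers fixed for this line were well above background on all 4 arrays in 8 of 8 cases, with raw signals of 975.5 to 41407.5. Of 10 markers of blood, stromal and liver cells, 9 passed the same flag at raw signals of 26 to 770, and HBB did not on any array. In untreated cells 35 of the 43 genes had a ratio above 0, beside 11047 of all 21378 genes above background. The median was 0.56 for the 43 genes, against 0.016 over all genes above background. In 198 genes the weakest Cy3 signal exceeded the strongest Cy5 signal 8-fold or more, which goes against that description of the pool, and none of the 43 was among them. In these bulk samples, fewer cells in G2 and mitosis and less RNA per cell cannot be told apart.

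As a group the genes did not move 1 way. Only NEK2 passed 2-fold, at each of the 3 times, and no gene fell 2-fold. Over all genes measured, 1.68% rose and 0.379% fell at least 2-fold at 3 h, 2.81% and 0.955% at 6 h, and 2.34% and 1.13% at 12 h. The median change of the 43 genes was -0.020 at 3 h, -0.022 at 6 h and 0.049 at 12 h, beside 0.0073, 0.016 and 0.014 over all genes. Genes lay on both sides of that flat median, as did all genes measured. At 12 h, 12 of the 43 were higher and 12 lower than in untreated cells beyond spot error. Over all genes 25.2% were higher and 20.1% lower, so the higher share was near that of all genes. Within spot error were 19 (44.2%), beside 54.7%. At 6 h the counts were 12 and 16, beside 25.5% and 18.3%, and at 3 h they were 13 and 10, beside 22.4% and 14.6%. The 13 include CDC25B, whose 3-h spot lay in a damaged area of that array and is not read as a rise below. Within spot error were 15 genes (34.9%) at 6 h, beside 56.2%, and 20 (46.5%) at 3 h, beside 63.0%. The balance of these counts depended on the scaling. When each array was only centred on its median, 5 were higher and 28 lower at 12 h, beside 2662 higher and 8999 lower of all 20561 genes, and the median of all genes moved to -0.16 and that of the 43 genes to -0.31.

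**Figure D1:**
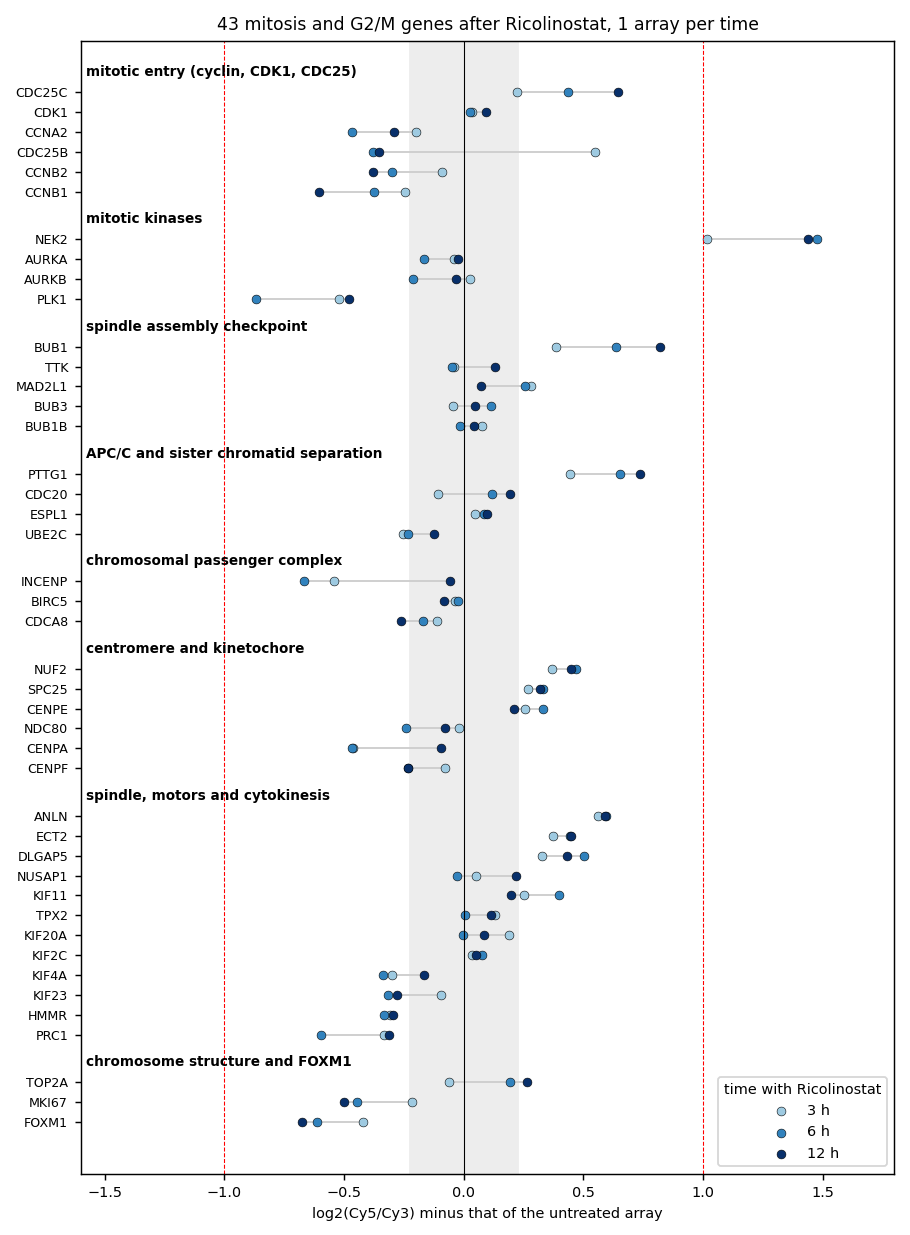
Change of the log2 ratio from the untreated array for each of the 43 genes at 3, 6 and 12 h (horizontal axis, log2 units), grouped by role, with 1 array per time. The grey band marks 2 median SD between repeated spots (0.23 at its widest, the 6-h value) and the red dashed lines 2-fold, which NEK2 alone passed.

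Across the 3 treated arrays, 10 genes (23.3%) lay above untreated beyond spot error every time. They were CDC25C, NEK2, BUB1, PTTG1, CENPE, NUF2, SPC25, DLGAP5, ANLN and ECT2, and the share over all genes was 15.0%. A further 6 genes (14.0%, beside 9.47% of all genes) lay below untreated every time, namely CCNB1, PLK1, PRC1, HMMR, MKI67 and FOXM1. In the Cy5 signal alone all 10 were also above 0 and all 6 below 0 at each time. There 8 of the 10 and 4 of the 6 were beyond the spot error of the ratio every time. CENPE and SPC25 dropped out above, and PRC1 and MKI67 below. The single channel placed 9 genes below untreated every time, 5 of them not among the 6. One of these was CDC25B, whose 3-h spot lay in a damaged area. The single-channel counts used the spot error of the ratio. The median SD between spots of the Cy5 change itself was 0.118 at 3 h, 0.081 at 6 h and 0.094 at 12 h. At 3 h CDC25C (0.228) and CCNB2 (-0.230), both counted, were short of 2 of those SD. Another 12 genes (27.9%, beside 38.4%) stayed within spot error at all 3 times: CDK1, AURKA, AURKB, BUB1B, BUB3, TTK, CDC20, ESPL1, BIRC5, KIF20A, KIF2C and TPX2. The remaining genes crossed that line at some times and not at others. With median centring CENPE and SPC25 changed sign at 12 h, whereas the other 8 of the higher genes and all 6 of the lower genes kept theirs at every time.

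The rule that chose the genes did not use their promoters. RefSeq promoters (GRCh38.p14, 250 bases before to 50 after the start) were given for 36 of the 43 genes. The letters of a CHR, searched as TTTGAA or TTCGAA on either strand, were in 26 of these 36 (72.2%), beside 13.8% of 15899 genes of the array with a promoter. CCAAT on either strand was in 28 of 36 (77.8%), beside 36.1%. Both were in 22 of 36 (61.1%), beside 5.61%. Of the 10 genes above untreated at all times, 6 held CHR letters and 6 CCAAT, and of the 5 genes below it with a promoter, 4 and 5 did. Such letters describe a sequence and are not shown to be bound here.

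The 120 bases before the start are shown for 4 genes that lay above untreated (NEK2, BUB1, PTTG1, ANLN) and 4 that lay below (CCNB1, PLK1, PRC1, MKI67), so that the shared letters can be compared. Capitals mark CHR letters (TTTGAA, its complement TTCAAA, or TTCGAA) and CCAAT (or its complement ATTGG). In PTTG1 and MKI67 neighbouring matches overlap.
NEK2, chr1:211675622-211675741, minus strand: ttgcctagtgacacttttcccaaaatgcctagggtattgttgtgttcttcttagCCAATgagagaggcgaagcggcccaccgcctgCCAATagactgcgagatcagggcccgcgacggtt
BUB1, chr2:110678064-110678183, minus strand: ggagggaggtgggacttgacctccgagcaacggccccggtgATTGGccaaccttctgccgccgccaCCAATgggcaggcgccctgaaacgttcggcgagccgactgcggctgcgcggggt
PTTG1, chr5:160421735-160421854, plus strand: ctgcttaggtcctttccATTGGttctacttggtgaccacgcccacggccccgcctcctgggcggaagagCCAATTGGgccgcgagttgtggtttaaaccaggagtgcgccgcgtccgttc
ANLN, chr7:36389742-36389861, plus strand: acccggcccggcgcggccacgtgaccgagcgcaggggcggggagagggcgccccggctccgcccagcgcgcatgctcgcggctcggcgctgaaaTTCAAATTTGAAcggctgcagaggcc
CCNB1, chr5:69167030-69167149, plus strand: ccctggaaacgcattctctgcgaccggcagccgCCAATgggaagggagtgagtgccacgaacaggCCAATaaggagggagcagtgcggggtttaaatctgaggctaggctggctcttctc
PLK1, chr16:23678769-23678888, plus strand: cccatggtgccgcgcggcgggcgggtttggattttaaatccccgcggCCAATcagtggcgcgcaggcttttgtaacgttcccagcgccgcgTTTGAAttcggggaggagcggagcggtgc
PRC1, chr15:90994536-90994655, minus strand: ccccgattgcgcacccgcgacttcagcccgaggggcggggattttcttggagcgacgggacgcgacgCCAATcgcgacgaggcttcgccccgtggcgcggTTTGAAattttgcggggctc
MKI67, chr10:128126424-128126543, minus strand: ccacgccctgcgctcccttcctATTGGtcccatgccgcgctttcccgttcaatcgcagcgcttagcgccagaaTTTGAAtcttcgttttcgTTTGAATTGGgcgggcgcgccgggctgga

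The genes of mitotic entry went in opposite directions. CDC25C, a phosphatase that activates CDK1, had ratios of -0.49 untreated, -0.26 at 3 h, -0.05 at 6 h and 0.16 at 12 h. Each array was higher than the time before it, and the 12-h change of 0.64 was 1.56-fold. CCNB1, which encodes cyclin B1, the partner of CDK1, went the other way, with ratios of 0.40, 0.15, 0.02 and -0.21 on the same 4 arrays. Its change was -0.25 at 3 h, -0.37 at 6 h and -0.61 at 12 h, a fold of 0.657 at the last time. A brighter CCNB1 probe was flagged as an outlier on the untreated array, in a damaged area, and so gave no change. Its ratios of 0.88, 0.54 and 0.53 at 3, 6 and 12 h were also lower at the later times, mainly between 3 and 6 h. The other B-type cyclin, CCNB2, changed by -0.09, -0.30 and -0.38.

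CCNA2, the cyclin A of S phase and G2, was read by 10 spots on each array. Its change was -0.19 ± 0.12 (SD over 9 spots) at 3 h, -0.47 ± 0.14 (10 spots) at 6 h and -0.29 ± 0.09 (10 spots) at 12 h. Every spot was below 0 at every time, and all 10 spots were higher at 12 h than at 6 h. CDK1 itself, also on 10 spots, changed by 0.03 ± 0.12 at 3 h, 0.03 ± 0.10 at 6 h and 0.09 ± 0.12 at 12 h (10 spots each), so its mean never left 1 SD of 0. CDC25B, another activator of CDK1, was lower at 6 h (-0.38) and 12 h (-0.35). Its 3-h value of 0.55 came from a spot in a damaged area of that array, where its Cy5 signal alone was lower by 1.43 and its Cy3 reference signal was also low, and so it is not read as a rise.

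Among the mitotic kinases NEK2 and PLK1 moved furthest apart. NEK2, a kinase that separates centrosomes at the start of mitosis, had ratios of 0.22 untreated, 1.24 at 3 h, 1.70 at 6 h and 1.66 at 12 h. It rose 2.02-fold by 3 h, 2.78-fold by 6 h and 2.71-fold by 12 h. Its Cy5 signal alone rose by 1.01, 1.40 and 1.31 on the log2 scale. The dimmer NEK2 probe gave ratios of 0.49, 1.08, 1.56 and 1.52, which is 1.51-fold at 3 h, 2.10-fold at 6 h and 2.04-fold at 12 h. In the ratio both probes thus rose at least 2-fold at 6 and 12 h, and the 3-h change passed 2-fold only on the brighter of them. The Cy5 signal alone of the dimmer probe changed by 0.91, 0.80 and 0.96, short of 2-fold at each time. Represented by its brighter probe or the mean of both, NEK2 passed 2-fold under all 9 ways of computing the change at 6 and at 12 h, and under 7 of 9 at 3 h.

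PLK1, the polo-like kinase needed for spindle assembly and entry into mitosis, had the largest difference below untreated of any of the 43 genes at any time. Its ratios were 1.46, 0.95, 0.60 and 0.98 on the untreated, 3-, 6- and 12-h arrays. The lowest point was at 6 h, where the change was -0.87 (0.549-fold), and part of the difference was gone at 12 h (-0.48). In the Cy5 signal alone the 6-h difference was -1.15, which passes 2-fold, as does the value of -1.11 with median centring. In the ratio the second PLK1 probe, on another spot, gave -0.55, -0.84 and -0.54, within 0.061 of the brighter probe at each time. Its 3-h spot lay in a damaged area. The Cy5 signal alone of this probe changed by -1.02, -0.68 and -0.49, short of 2-fold at 6 h and lowest at 3 h, in the damaged area. AURKA and AURKB, the Aurora kinases of the spindle pole and the centromere, stayed within spot error at all times in the ratio, with changes from -0.21 to 0.03. Both had their lowest value at 6 h, although with median centring AURKA was slightly lower at 12 h. The Cy5 signal alone gave -0.30, -0.35 and -0.16 for AURKA and -0.08, -0.49 and -0.26 for AURKB, so that neither was within spot error at all times there.

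**Figure D2:**
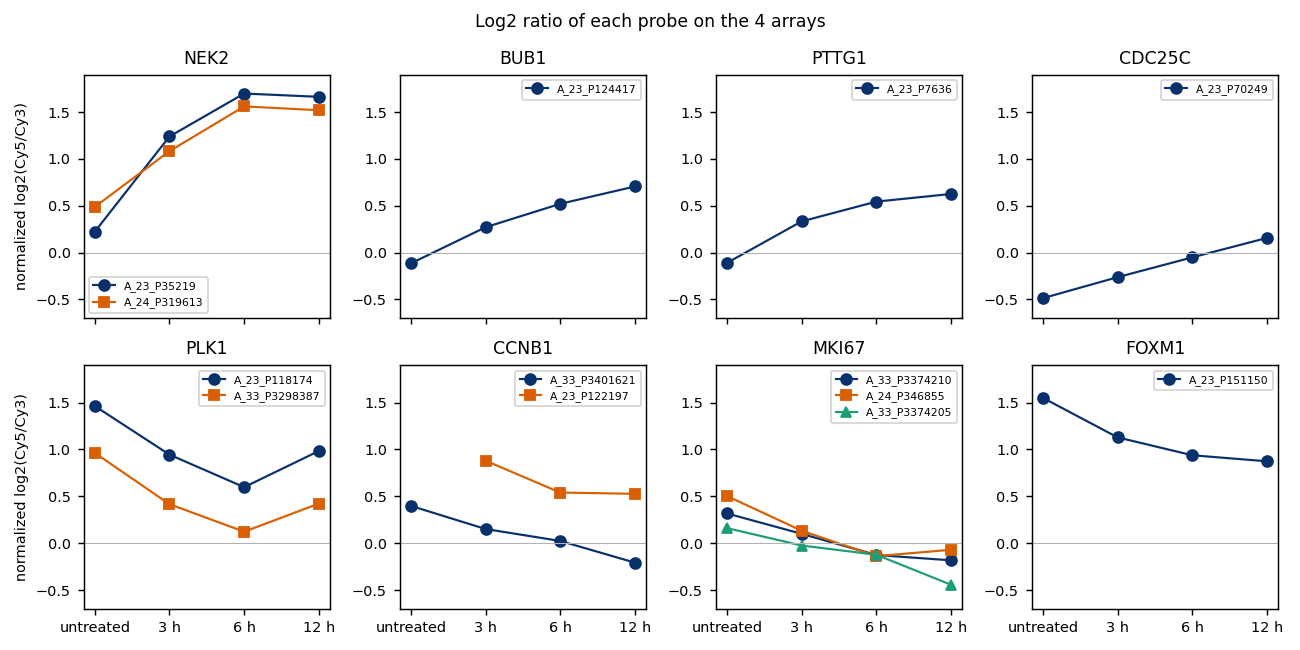
Normalized log2 ratio of Cy5 over Cy3 (vertical axis) on the untreated, 3-, 6- and 12-h arrays (horizontal axis, not to time scale) for every probe of 8 genes, 1 array per point. NEK2 rises on both probes and PLK1 has its lowest value at 6 h on both; the bright CCNB1 probe has no untreated value.

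In the spindle assembly checkpoint only BUB1 stood out. BUB1, a kinase that recruits checkpoint proteins to the kinetochore, had ratios of -0.12, 0.27, 0.52 and 0.70. Its change of 0.39 at 3 h, 0.64 at 6 h and 0.82 at 12 h was the second largest among the 43 genes at the last time, at 1.77-fold. The related BUB1B (BubR1), which inhibits APC/C directly, had ratios of 0.65, 0.73, 0.64 and 0.70, a change of 0.08, -0.01 and 0.04. BUB3, the partner of both, and TTK (MPS1), the kinase at the top of the checkpoint, also stayed within spot error. MAD2L1, the MAD2 protein that binds CDC20, was above untreated at 3 h (0.28) and 6 h (0.26) but not at 12 h (0.07). BUB3 is less certain than the others, because its probe with the brighter Cy3 signal was flagged on the untreated array. Between 3 and 6 h that probe went from -1.04 to -1.52, whereas the probe used here went from 0.38 to 0.54.

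Of the genes of APC/C and of sister separation, PTTG1 was higher at every time and UBE2C lower at 3 and 6 h, while CDC20 and ESPL1 stayed within spot error. PTTG1, or securin, the inhibitor of separase that APC/C destroys, had ratios of -0.11, 0.33, 0.54 and 0.62. Its change was 0.44, 0.65 and 0.74, or 1.67-fold at 12 h. The Cy5 signal alone gave 0.38, 0.42 and 0.48. PTTG1 has near-identical copies elsewhere in the genome, which its probe may not tell apart. UBE2C, the ubiquitin-conjugating enzyme of APC/C, had ratios of 0.87, 0.61, 0.63 and 0.74. It changed by -0.26 and -0.23, beyond spot error, and by -0.13 at 12 h, within it, while its Cy5 signal alone stayed lower, at -0.43, -0.47 and -0.38. CDC20, the activator of APC/C and the gene with the highest untreated ratio (2.08), and ESPL1, separase, ranged from -0.11 to 0.20.

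The chromosomal passenger complex corrects faulty attachments and guides cytokinesis, with AURKB, described above, as its kinase. The other 3 genes of the complex had ratios below untreated at every time, although with median centring 2 of the 3 were above it at 3 h. AURKB was at 0.03 at 3 h, and at 0.13 with median centring. INCENP, its scaffold, was read by 10 spots, with ratios of 1.42, 0.88, 0.76 and 1.37. It was lower by -0.53 ± 0.05 (SD over 8 spots) at 3 h and by -0.68 ± 0.11 (7 spots) at 6 h, with every spot below 0. At 12 h it was back near untreated, at -0.07 ± 0.14 (6 spots). The step from 6 to 12 h was 0.62 ± 0.09, and 6 of 6 spots went up. BIRC5 (survivin), also on 10 spots, changed by -0.08 ± 0.11 at 3 h (7 spots), -0.02 ± 0.14 at 6 h (9 spots) and -0.08 ± 0.13 at 12 h (8 spots), so that its spots fell on both sides of 0. CDCA8 (borealin) had ratios of 0.76, 0.65, 0.59 and 0.49, a change of -0.11 at 3 h, -0.17 at 6 h and -0.26 at 12 h. Its Cy5 signal alone was 0.27 at 3 h and -0.06 at 12 h, so the ratio and the single channel differed in sign at 3 h.

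**Figure D3:**
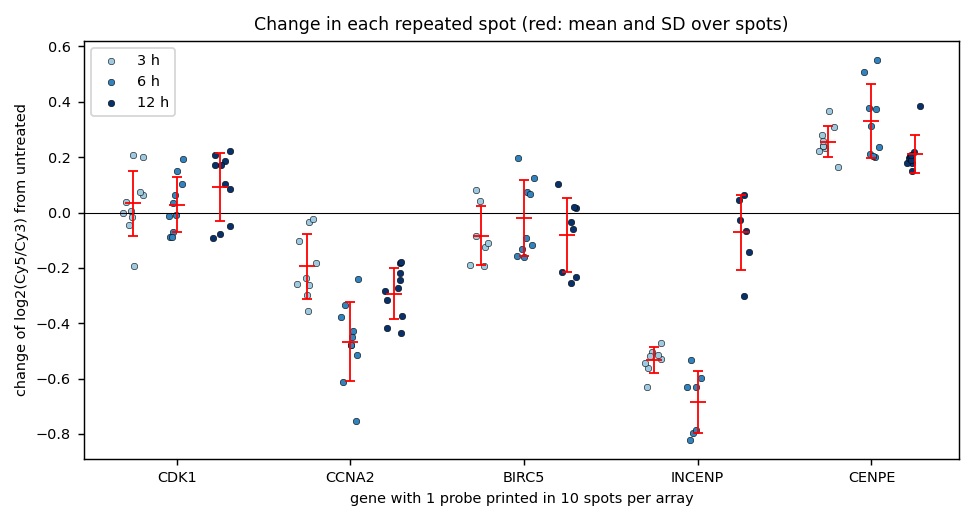
Change of the log2 ratio from untreated (vertical axis) in each repeated spot of the 5 genes whose probe was printed in 10 spots per array, at 3, 6 and 12 h; red bars are the mean and SD over spots, which are technical repeats of 1 sample. INCENP lies clearly below 0 at 3 and 6 h and around 0 at 12 h, and CENPE lies above 0 in every spot.

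Kinetochore genes were divided by complex and even within 1. NUF2 and SPC25 belong, with NDC80, to the NDC80 complex that holds microtubules. NUF2 had ratios of -0.03, 0.34, 0.44 and 0.42, a change of 0.37, 0.47 and 0.45. SPC25 changed by 0.27, 0.33 and 0.32. NDC80 (HEC1) did not share this, with -0.02, -0.24 and -0.08. CENPE, the kinesin that moves chromosomes to the spindle equator, was higher in 9 of 9 spots at each time, by 0.26 ± 0.06, 0.33 ± 0.13 and 0.21 ± 0.07. CENPA, the histone H3 variant that marks centromeres, was lower at 3 h (-0.46) and 6 h (-0.47) and near untreated at 12 h (-0.09). CENPF, a large protein of the outer kinetochore, had ratios of 0.33, 0.25, 0.10 and 0.10. Its second probe agreed at 6 h (both -0.23) and was closer to untreated at 12 h, at -0.10 beside -0.23.

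The 12 genes of the spindle, its motors and cytokinesis held genes at both ends. ANLN (anillin), the scaffold of the contractile ring, had ratios of 0.42, 0.98, 1.01 and 1.01. It had reached 1.48-fold by 3 h and stayed at 1.51-fold at 6 and 12 h. In the ratio CDC25C, BUB1 and PTTG1 were higher at 12 h than at 6 h, by 0.21, 0.19 and 0.08. With median centring the changes at 3, 6 and 12 h were 0.35, 0.30 and 0.42 for CDC25C and 0.53, 0.48 and 0.52 for BUB1. For PTTG1 they were 0.51, 0.39 and 0.27, lower at each later time, and for ANLN 0.73, 0.47 and 0.33. ECT2, the exchange factor that activates RHOA for the contractile ring, changed by 0.37, 0.44 and 0.45. DLGAP5 (HURP), which stabilises spindle fibres near chromosomes, changed by 0.33, 0.50 and 0.43. KIF11 (Eg5), the motor that pushes spindle poles apart, was above untreated at 3 h (0.25) and 6 h (0.40) and within spot error at 12 h (0.20).

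At the other end, PRC1, which bundles microtubules of the central spindle, had ratios of 0.88, 0.54, 0.28 and 0.56. Its change was -0.33, -0.59 and -0.31, while the Cy5 signal alone gave smaller differences of -0.13, -0.28 and -0.09. HMMR, a spindle protein that also binds hyaluronan, was lower at each time, at -0.31, -0.33 and -0.30 in the ratio and at -0.27, -0.55 and -0.61 in the Cy5 signal alone. KIF4A, a motor of chromosome arms and the central spindle, changed by -0.30, -0.34 and -0.16, and its second probe by -0.22, -0.26 and -0.03. For KIF23 (MKLP1), a central spindle motor, the 2 probes were on opposite sides of 0 at every time, with -0.28 and 0.13 at 12 h, and no direction is given. KIF20A, KIF2C and TPX2 stayed within spot error throughout. NUSAP1 passed it only at 12 h (0.22), and in the Cy5 signal alone was 0.10 there.

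FOXM1 and MKI67 were both lower at all times. FOXM1, the transcription factor that acts on many genes of this list, had ratios of 1.55, 1.13, 0.94 and 0.87. Its change of -0.42, -0.61 and -0.68 ended at 0.625-fold, the lowest of the 43 genes at 12 h in the ratio. With median centring it was -1.02, which passes 2-fold. In the Cy5 signal alone it was -0.50, and several genes were lower, among them PLK1 (-0.80) and CCNB1 (-0.79). MKI67, which encodes the proliferation marker Ki-67, a coat of mitotic chromosomes, was measured by 3 probes. The brightest gave -0.22, -0.44 and -0.50, and all 3 lay between -0.60 and -0.50 at 12 h. TOP2A, the topoisomerase that disentangles sister chromatids, had ratios of -0.07, -0.13, 0.12 and 0.19, a change of -0.06, 0.19 and 0.26, but its Cy5 signal alone was 0.00 at 12 h.

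With 1.5-fold in place of 2-fold, 1 gene was higher and none lower at 3 h, beside 6.86% and 1.98% of all genes. At 6 h, 4 were higher (NEK2, PTTG1, BUB1 and ANLN) and 4 lower (PLK1, INCENP, FOXM1 and PRC1), beside 9.40% and 4.46%. At 12 h, 5 were higher (NEK2, BUB1, PTTG1, CDC25C and ANLN) and 2 lower (CCNB1 and FOXM1), beside 8.09% and 5.17%. These are few genes, and 1 gene is 2.326% of the list.

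Among the 3 treated arrays, the 6-h array held the lowest value for 19 of the 43 genes (44.2%), beside 25.9% of all genes. This count has no threshold and takes in genes that stayed within spot error at all times, such as AURKA and AURKB. With median centring PLK1, CCNA2, INCENP, CENPA, PRC1, AURKB, TTK, KIF4A and NUSAP1 kept their lowest value at 6 h. The others (AURKA, CDK1, CDC25B, BUB1B, CENPF, NDC80, KIF20A, KIF23, TPX2 and HMMR) were then lowest at 12 h. From 6 to 12 h 27 genes went up and 16 down, beside 10063 up and 10647 down of all 20710 genes with a step. The median step was 0.038, beside -0.0057 over all genes. The step from 3 to 6 h had a median of -0.026, beside 0.0077. These steps compare single arrays, in which a time and an array cannot be told apart.

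The sign of the change was the same in the Cy5 signal alone for 37 genes at 3 h, 38 at 6 h and 37 at 12 h. Cy5 is the numerator of the ratio, so such agreement is partly built in. The share over all genes was not counted. At 2-fold the single channel called NEK2 higher at each time, beside 1.35%, 2.72% and 2.24% of all genes. It called CDC25B lower at 3 h, in the damaged area, and PLK1 lower at 6 h, beside 1.18% and 1.21%, and no gene lower at 12 h, beside 1.55%. In the single channel the median of the 43 genes was -0.11 at 6 h and -0.066 at 12 h, beside -0.017 and -0.0071 over all genes. There 14 of the 43 lay above 0 and 29 below at 6 h, and 19 and 24 at 12 h.

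**Figure D4:**
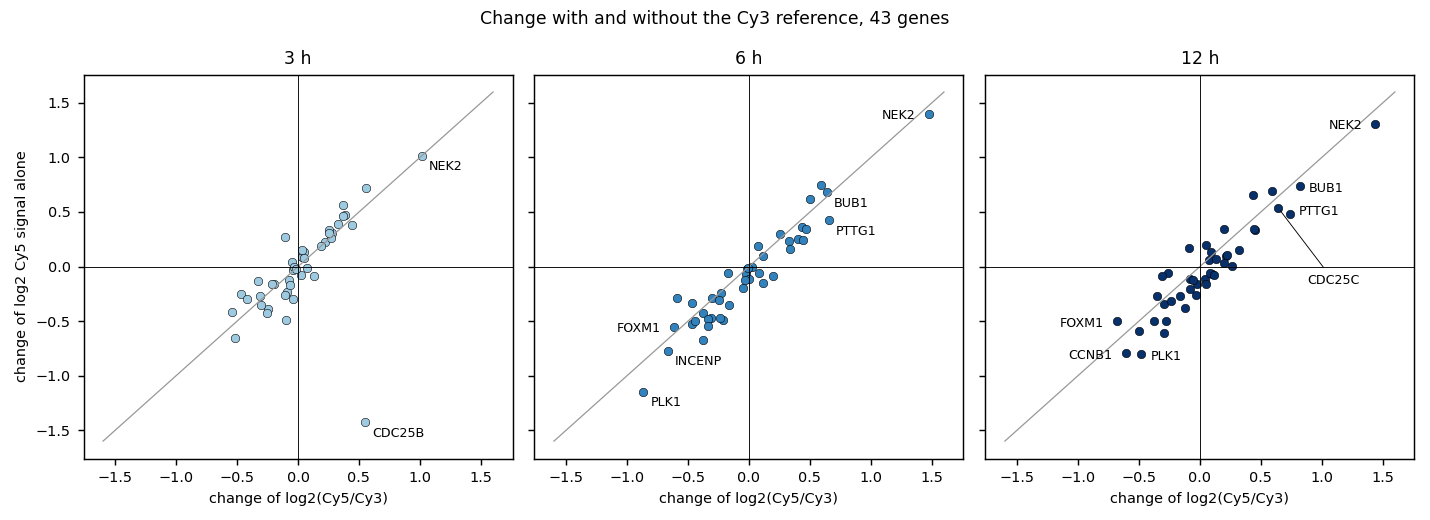
Change from untreated of the log2 ratio of Cy5 over Cy3 (horizontal axis) and of the normalized log2 Cy5 signal alone (vertical axis) for the 43 genes, 1 panel per time; the grey line marks equality. CDC25B at 3 h lies farthest from the line, in a damaged area, and some other genes also lie off it, such as CDCA8 at 3 h (-0.11 and 0.27) and PLK1 at 12 h (-0.48 and -0.80).

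Genes that neighbour these in the cell cycle were taken from 3 further lists. In a list of 104 other mitotic genes the median was 0.011 at 3 h, -0.0036 at 6 h and 0.022 at 12 h, close to that of all genes. At 12 h 28 were higher and 27 lower beyond spot error, beside 25.2% and 20.1% of all genes. At 2-fold 1 rose and 2 fell, beside 2.34% and 1.13%. SGOL2 (shugoshin 2), which protects centromeric cohesion, rose by 1.03 on the log2 scale at 12 h. NEK6, a kinase of the NEK2 family, changed by -1.08, and LMNB1 (lamin B1), a protein of the nuclear lamina, by -1.70. LMNB1 had changed by -0.19 at 3 h and -0.89 at 6 h, so that each later array was lower. In the Cy5 signal alone the changes of SGOL2 (0.95) and NEK6 (-0.81) were short of 2-fold and that of LMNB1 (-1.85) was not.

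In a list of 48 genes of DNA replication and the G1/S transition, the median at 12 h was -0.18, lower than that of the mitotic genes. There 8 were higher and 23 lower beyond spot error, beside 25.2% and 20.1% of all genes. At 2-fold 0 rose and 2 fell, beside 2.34% and 1.13%. Those that fell were GINS3, a subunit of the replicative helicase, at -1.30, and UNG, the DNA repair enzyme that removes uracil, at -1.28. In the Cy5 signal alone 3 fell 2-fold, beside 1.55%, the third being TYMS at -1.14. GINS3 was already at -1.28 at 3 h, whereas UNG went from -0.34 at 3 h to -0.71 at 6 h. The medians of the list at 3 and 6 h were -0.046 and -0.048. With median centring its 12-h median was -0.49, beside -0.31 for the 43 genes.

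**Figure D5:**
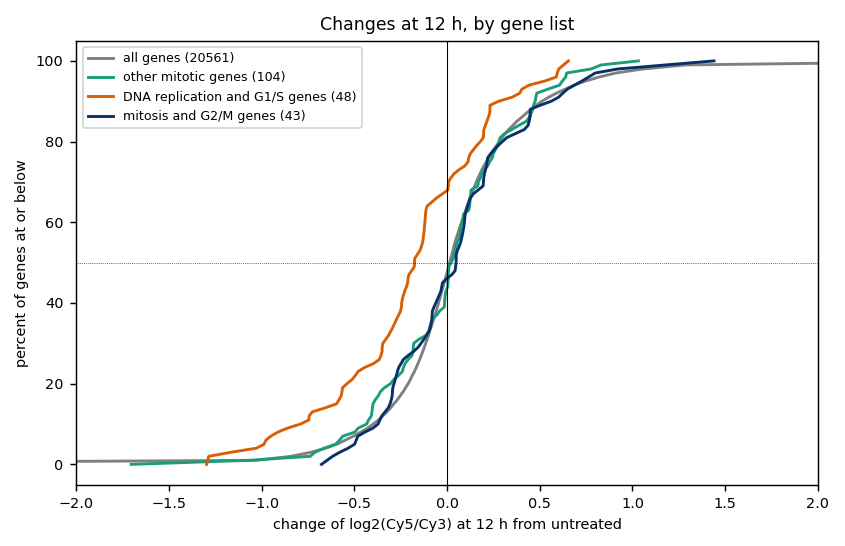
Percent of genes (vertical axis) at or below a given change of the log2 ratio at 12 h (horizontal axis) for all 20561 genes measured, the 43 mitosis and G2/M genes, 104 other mitotic genes and 48 DNA replication and G1/S genes. The 43 genes follow all genes around the median of 0.049, while the replication genes lie to the left, with a median of -0.18.

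A list of 18 genes of DREAM, MuvB and cell cycle brakes gave 17 measured genes, since E2F4 had no value. Their median was 0.15 at 3 h, 0.23 at 6 h and 0.046 at 12 h. Only TFDP2, a partner of E2F factors, passed 2-fold at 12 h (1.05), beside 2.34% of all genes that rose. Its probe had a spot in a damaged area, and its Cy5 signal alone was at 0.91, short of 2-fold. More genes were picked for their known roles after their values were seen. CDKN1A (p21), an inhibitor of cyclin-dependent kinases, changed by 0.15 at 3 h, 0.62 at 6 h and 0.96 at 12 h. MYBL2 (B-MYB) changed by -0.21, -0.39 and -0.32. The MuvB subunits differed in direction. LIN9 changed by -0.68, -0.82 and -0.72, whereas LIN37 changed by 0.67, 0.60 and 0.33, LIN52 by 0.36, 0.31 and 0.31, and LIN54 by 0.77, 0.74 and 0.33. In the Cy5 signal alone at 12 h, CDKN1A (1.06) and LIN9 (-1.14) passed 2-fold. There LIN37, LIN52 and LIN54 were at 0.31, 0.18 and 0.10.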

How the data were processed

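The authors deposited, for 4 two-colour arrays, the intensity of every spot and its background from Feature Extraction 12.0.1.1, a log10 ratio, and a table of normalized log2 ratios, whose normalization is not given in the sources used here. Here median pixel intensities were corrected by normexp (offset 50), which shrinks the changes of dim probes. Of 62976 spots per array 2075 controls were left out. Flagged spots were set aside, and arrays were normalized by loess and Aquantile (limma 3.58.1, R 4.3.3). All 4 arrays were on 1 slide, so there was no batch to test. Values were summarised in Python 3.11.15 with numpy 2.4.6, pandas 2.3.3 and matplotlib 3.10.9, and the processing was tested on simulated data.

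Each gene took the probe brightest in Cy3 among those with a value on all arrays, so the dimmer probe stands for CCNB1 and BUB3. A gene counts as measured at a time when both channels were well above background there and on the untreated array. Spot error came from the median SD over 159, 201 and 211 probes with at least 9 spots at 3, 6 and 12 h. Damaged areas, defined from Cy3 and outlier flags in windows of 13 rows and 7 columns, held 2.86%, 4.10%, 0.0985% and 0% of spots on the untreated, 3-, 6- and 12-h arrays. Values on every array are given for genes past 2-fold and for the largest rise and fall at 12 h in each role. From the other lists, genes past 2-fold at 12 h are named. The genes and lists were chosen with earlier results of these data known. Precision is limited by the number of arrays. Where RefSeq gives several starts for a gene (6 genes), the promoter of the first was used.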

Additional observations from a re-analysis of the deposited data

Results flagged for a closer look

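The Cy3 reference should hold the same RNA on every array, so its signal was compared over the 4 arrays for each of the 43 genes. In 2 genes a single array stood far from the other 3, by a gap above Dixon's 95% critical value for 4 values, a gap that chance gives in about 1 of 20 genes. The normalized log2 Cy3 signal of CDC25B was 7.90 on the 3-h array and 9.83 to 9.96 on the others, and that spot lies in a damaged area. The Cy3 signal of KIF20A was 9.85 on the 12-h array and 9.98 to 9.99 on the others, a small difference within a narrow range. The median range of the Cy3 signal over the 43 genes was 0.22.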

How the results depend on the processing

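No paired analysis was possible because there is 1 array per condition. The median of the genes at 12 h was -0.028 with the Feature Extraction signals, against 0.049. The genes with the largest rise and fall at 12 h in each role gave 48 changes over the 3 times. Of these, 5 changed sign with median centring, 4 in the Cy5 signal alone and 1 with the Feature Extraction signals. Over all 43 genes, 12 lay above 0 at 6 h with median centring, against 19. At 12 h, CDK1, BUB1B, BUB3, MAD2L1, TTK, CDC20, ESPL1, CENPE and SPC25 went from above to below 0 with median centring. So did KIF11, KIF20A, KIF2C, TPX2, NUSAP1 and TOP2A. Rises of 2-fold at 3 h numbered 0 in the authors' table and 0 with the mean of all probes, where NEK2 was at 0.81. At 1.5-fold there were 4 rises and 4 falls at 6 h, and 5 rises and 2 falls at 12 h. The Cy5 signal alone gave 1 fall at 3 h and 1 at 6 h, and median centring 1 at 6 h and 1 at 12 h. Median centring moved the median of the genes to -0.22 at 6 h and -0.31 at 12 h, and the Cy5 signal alone moved it to -0.066 at 12 h. After seeing the data, genes beyond spot error at all 3 times were counted under each alternative. Those above untreated numbered 5 with median centring and 6 with the Feature Extraction signals, against 10, and those within spot error 3 with median centring, against 12. Those below untreated numbered 9 in the Cy5 signal alone, against 6, with 4 shared. The causes were not tested. No array could be left out, since each is alone at its time. All 43 genes were well above background, so signal strength limited none of them, but normexp shrinks the dimmest.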
